A study of Homo sapiens with 6 samples.

Results

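This account follows 9 genes that are widely described as targets of the transcription factor STAT3, in RNA sequencing libraries from lines with a short hairpin RNA (shRNA) against STAT3 and from lines with a control shRNA. The genes are MUC1, NNMT, PIM1, PIM2, PIM3, BCL3, MYC, BCL6 and CEBPD. They were picked by gene name with earlier results of these data known, and all 9 had a row among the 27452 rows of the deposited count table. The labels name the cells as HepG2, an established human liver cancer line, give STAT3 shRNA or Ctrl shRNA as the treatment, and number 3 libraries in each group. All of the cells were grown in DMEM with serum and antibiotics, and no cytokine is named in the labels. An shRNA is cut in the cell to a short guide RNA, which directs the breakdown of matching messenger RNA. The labels do not give the hairpin sequences, nor whether a line was a clone or a pool, nor whether the library numbers stand for separate cultures. The p-values therefore rest on the library-to-library spread alone, which could be technical, and any other difference between the lines cannot be told apart from the effect of the shRNA.

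STAT3 rests in the cytoplasm until receptors of the interleukin-6 family activate Janus kinases, which phosphorylate it. It then pairs up, enters the nucleus and binds DNA at short palindromes of the form TTCNNNGAA. The genes described here cover several of the jobs ascribed to it. MUC1 encodes a mucin at the cell surface, and NNMT an enzyme that methylates nicotinamide. The PIM genes encode serine/threonine kinases that favour survival and growth. BCL3, MYC, BCL6 and CEBPD encode nuclear proteins that themselves regulate genes.

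Promoter windows of RefSeq (GRCh38.p14), each with 250 bases before and 50 after a gene's start, were found for 6 of the 9 genes and searched for that palindrome on both strands. TTCNNNGAA occurred in 7.66% of 35116 promoter windows. Among the 8 windows of these 6 genes it occurred in 1, at the upstream start of BCL6, which held 4 matches. At least that many were found in 7 of the 35116 windows, or 0.0199%. The MUC1, PIM1, PIM2, PIM3 and BCL3 windows had no match, which says only that these letters are not within this stretch. Both MUC1 windows, whose starts lie a few bases apart, held the letters TATAAA, found on either strand in 11.5% of all windows. The upstream parts of the BCL6 window, shown for its palindrome, and of the first MUC1 window, shown because MUC1 changed most, are given 5′ to 3′ on the coding strand. Capitals mark the palindrome in BCL6 and TATAAA in MUC1. They lie at chr3:187745469-187745718 and chr1:155192916-155193165, both on the minus strand.
BCL6: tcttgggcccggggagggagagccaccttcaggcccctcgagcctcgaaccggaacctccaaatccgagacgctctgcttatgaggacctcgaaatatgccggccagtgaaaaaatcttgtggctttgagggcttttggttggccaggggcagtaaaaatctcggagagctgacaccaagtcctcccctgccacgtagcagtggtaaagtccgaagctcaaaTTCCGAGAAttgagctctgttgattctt
MUC1: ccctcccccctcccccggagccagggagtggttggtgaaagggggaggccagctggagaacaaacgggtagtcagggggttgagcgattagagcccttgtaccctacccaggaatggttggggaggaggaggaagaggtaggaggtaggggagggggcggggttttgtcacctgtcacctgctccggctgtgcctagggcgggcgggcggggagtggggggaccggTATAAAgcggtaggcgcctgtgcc
The BCL6 match printed in capitals begins at position -28 from the start. The other matches, TTCTTAGAA at positions -5 and 11 and TTCTAGGAA at position 37, cross or follow the start. These are matches of letters, and binding was not measured.

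The libraries held 17694642 to 25862027 counts in the STAT3 shRNA group and 17408543 to 20133064 in the control group. A count of 0 would allow up to 3 counts, or 0.116 to 0.172 counts per 1000000 (CPM) of the library total, which covers counting error only. All levels are CPM of the library size scaled by TMM, a method that assumes most genes do not differ. The groups parted along the first principal component (56.4% of variance). STAT3 itself had 34.8, 35.8 and 36.2 CPM with STAT3 shRNA, against 261.5, 246.7 and 246.3 CPM in the control libraries, so each library carried the level that its label names. Liver markers were nearly missing in both groups, which goes against the HepG2 label, so the cells are called here by their shRNA only. Of 18 markers of hepatocytes and HepG2 cells, 9 had a row in the table used here and 3 reached 1 CPM in any library. Albumin (ALB) had 0, 0 and 3 counts in the STAT3 shRNA libraries and 2, 0 and 0 in the control libraries. The markers summed to 15.4 to 21.6 CPM in the STAT3 shRNA libraries, against 8.57 to 12.4 CPM in the control libraries, most of it from CEBPA and HNF4A. HNF4A averaged 6.58 CPM with STAT3 shRNA and 1.51 CPM in controls and was called higher, while CEBPA was not called. Epithelial keratins KRT8 and KRT18 were abundant in every library. Epithelial markers summed to 4643 to 5085 CPM in the STAT3 shRNA libraries and 2813 to 3375 CPM in the control libraries, while CDH1 (E-cadherin) stayed under 1 CPM on average. Of the 5 epithelial markers 4 were called higher, against 9.39% of all 14999 genes tested. EPCAM was among them (10.5 CPM on average with STAT3 shRNA, 3.06 CPM in controls). Fibroblast markers summed to 35.6 to 37.3 CPM with STAT3 shRNA and 53.2 to 61.2 CPM in controls, through COL1A1 (15.3 CPM with STAT3 shRNA, 40.3 CPM in controls), while the other tested members, DCN and PDGFRB, differed by 0.30 and 0.33 on the log2 scale and were not called. Leukocyte markers summed to 20.6 to 28.2 CPM with STAT3 shRNA and 11 to 15.7 CPM in controls. Endothelial markers summed to at most 1.69 CPM with STAT3 shRNA and 1.76 CPM in controls. PTPRC, PECAM1 and COL1A2 had no row. The part of these markers in the results below was not tested, and fewer cells of a type and less RNA per cell cannot be told apart in such bulk libraries.

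Of the 9 genes, 5 were lower with STAT3 shRNA and 0 were higher at a false discovery rate (FDR) of 0.05 over all 14999 genes tested (edgeR quasi-likelihood test). MUC1, PIM2, NNMT, CEBPD and BCL3 fell, in the order of their change. Over all tested genes 8.13% were called lower and 9.39% higher, 17.5% in all. The share of these calls that were higher was 53.6%, and 68.7% with library totals in place of TMM. At an unadjusted p under 0.05 the counts were 6 lower and 1 higher. The shares above do not apply to this looser cut, and none is given for it here or for the lists below. DESeq2 also called 5 lower and 0 higher at an FDR of 0.05. Over all 27207 genes with a count, DESeq2 called 1373 higher and 1445 lower. The 9 genes had a median log2 fold change of -0.76, against -0.01 over all tested genes. Since the 9 were chosen with results of these data known, these contrasts with all genes describe the set and are no independent evidence of its direction. In 6 of them every STAT3 shRNA library lay below every control library, which held for 17.2% of all tested genes, and in 0 did every one lie above, against 18.5%. All log2 fold changes that follow are STAT3 shRNA over control shRNA with their SE, and all adjusted p-values come from the edgeR fit across all genes.

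**Figure D1:**
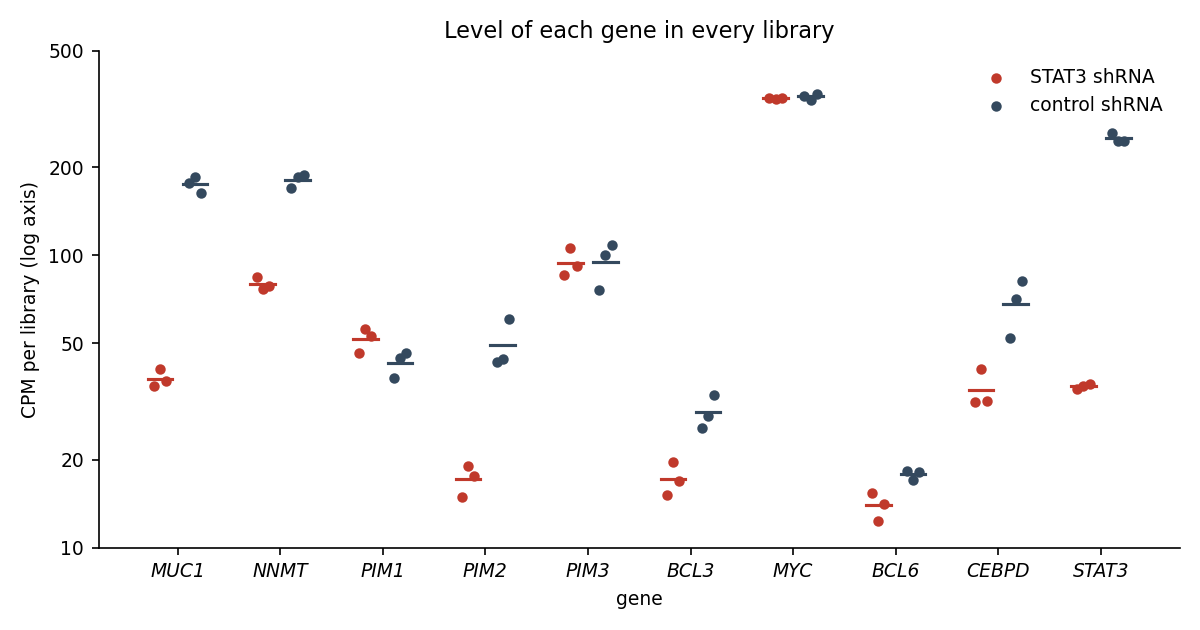
CPM (log axis) of each of the 9 genes and of STAT3 in every library, with points for the 3 STAT3 shRNA libraries (red) and the 3 control shRNA libraries (dark blue) and bars for group means. The groups are apart for MUC1 (37.9 against 175 CPM on average), NNMT, PIM2, BCL3, BCL6 and CEBPD, and overlap for PIM1, PIM3 and MYC.

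MUC1 (ENSG00000185499.16) encodes a membrane mucin whose long outer part is built of repeated, heavily glycosylated segments and whose short tail signals inside the cell. It had 35.8, 40.7 and 37.1 CPM in the STAT3 shRNA libraries, against 177.2, 184.4 and 162.8 CPM in the control libraries. The groups were far apart compared with the spread inside them: the highest library exceeded the lowest 1.14-fold in the STAT3 shRNA group and 1.13-fold in the control group. The log2 fold change was -2.21 ± 0.0958, a 4.62-fold lower level (edgeR adjusted p = 2.06e-06). The raw counts behind it were 680 to 954 in the STAT3 shRNA libraries and 3038 to 3454 in the control libraries, so counting error is small here.

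The repeats of MUC1 bear on how its reads can be placed. In its longest GENCODE 29 transcript, of 4170 bases, a unit of 60 bases recurs exactly 19 times (the gene is on chromosome 1), and 42.4% of all 50-base windows occur more than once within the transcript. The unit, written in 5′ to 3′ direction with no part set off, is shown because a read inside it has several equal places in the gene.
MUC1 repeat: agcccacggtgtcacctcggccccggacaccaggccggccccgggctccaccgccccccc
No 50-base window of the transcript was shared with another annotated gene. AL713999.1, a coding gene annotated over MUC1 on the same strand, had at most 5 counts in a library. How the submitters counted reads with several places is not given in the sources used here, and the number of repeats is known to vary between people, so the level of MUC1 per base is uncertain while the comparison between groups uses the same gene in both.

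Other mucins of the cell surface showed calls in both directions. Of 5 tested members of the list, 2 rose and 1 fell, with a median log2 fold change of 0.34. Over all tested genes 9.39% were called higher and 8.13% lower, with a median of -0.01, here and for each list below. MUC16, the ovarian cancer antigen CA-125, had 54.8, 44.5 and 44.2 CPM with STAT3 shRNA, against 21.7, 17.9 and 16.2 CPM in controls, and rose (1.37 ± 0.14, edgeR adjusted p = 0.000244). MUC13 had 131, 96 and 89 counts with STAT3 shRNA and 5, 1 and 1 counts in controls, close to the floor of 3 counts, and was called higher. MUC12 was called lower (-0.94 ± 0.268, edgeR adjusted p = 0.0411). The MUC12 call did not hold in 6 of the 13 alternative fits, among them those without control library 1 or 2 or without STAT3 shRNA library 2 or 3, which left 0 lower. MUC3A, the mucin of the list with the highest mean after CD164, averaged 95.8 ± 10.4 CPM with STAT3 shRNA and 85.3 ± 7.57 CPM in controls (SD, n = 3 each) and was not called. Shared sequence among these other mucin genes was not tested.

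NNMT (ENSG00000166741.7), nicotinamide N-methyltransferase, moves a methyl group from S-adenosylmethionine to nicotinamide and so draws on both the NAD and the methyl donor supply. It had 84.5, 76.7 and 78.8 CPM in the STAT3 shRNA libraries, against 170.4, 185.0 and 188.7 CPM in the control libraries. Every STAT3 shRNA library lay at or under 84.5 CPM and no control library under 170.4 CPM. The log2 fold change was -1.18 ± 0.0873 (2.27-fold lower, edgeR adjusted p = 4.09e-05). An antisense gene that overlaps NNMT, AP002518.2, had no row in the table used here.

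Enzymes around NNMT showed a few calls in both directions, with 2 of 19 tested higher and 3 lower (9.39% and 8.13% over all genes). The median log2 fold change of the list was -0.10. AHCY, which clears the S-adenosylhomocysteine left by methyl transfer, had 224.8, 244.0 and 225.7 CPM with STAT3 shRNA, against 310.3, 335.5 and 389.8 CPM in controls, and fell (-0.58 ± 0.101, edgeR adjusted p = 0.00432). NMNAT2, an NAD-making enzyme known from axons, had 125, 129 and 123 counts with STAT3 shRNA and 4, 4 and 1 counts in controls, and was called higher. The nicotinamide riboside kinase NMRK1 was called lower (-0.67 ± 0.186), a call that did not hold in 8 of the 13 alternatives. The deacetylase SIRT1 was called higher (0.44 ± 0.131), which did not hold in 5 of them, and is named after its values were seen. NAMPT, the main enzyme that recycles nicotinamide and itself described as a STAT3 target, averaged 80.9 ± 8.25 CPM with STAT3 shRNA and 96.4 ± 5.98 CPM in controls and was not called (-0.25 ± 0.101, edgeR adjusted p = 0.124). Leaving out STAT3 shRNA library 1 or control library 2 gave 1 higher and 1 lower. Leaving out STAT3 shRNA library 3 gave 1 higher, and leaving out control library 1 gave 6 lower. Lower calls over all genes numbered 666, 708, 675 and 2030 in these fits, in the same order, against 1219 in the main fit. Higher calls numbered 796, 819, 800 and 2068, against 1408.

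The PIM kinases are active as soon as they are made, so their activity follows their amount, and cytokine signals through STAT factors are known to raise their messenger RNA. Among the 3 genes PIM2 fell and the other two were not called. PIM2 (ENSG00000102096.9) had 14.9, 19.1 and 17.6 CPM in the STAT3 shRNA libraries, against 43.3, 44.1 and 60.5 CPM in the control libraries. The groups did not overlap, and the log2 fold change was -1.52 ± 0.158 (2.87-fold lower, edgeR adjusted p = 0.000262). Control library 3 stood above the other control libraries, and without it the change was -1.34 and still called.

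PIM1 (ENSG00000137193.14) had 46.3, 56.1 and 52.8 CPM in the STAT3 shRNA libraries, against 38.0, 44.4 and 46.3 CPM in the control libraries. The groups met at 46.3 CPM, and the difference of 0.27 ± 0.115 on the log2 scale was not called (95% interval 0.01 to 0.53, edgeR adjusted p = 0.146). PIM3 (ENSG00000198355.5) had 85.4, 106.1 and 91.6 CPM with STAT3 shRNA, against 76.1, 100.4 and 108.2 CPM in controls, and the groups overlapped. Its log2 difference was -0.01 ± 0.141 with a 95% interval of -0.33 to 0.31 (edgeR adjusted p = 0.976), so a change of PIM3 as large as that of PIM2 lies outside the interval. The sign of the PIM3 difference turned in 7 of the 13 alternative fits. Upper-quartile scaling, library totals and several fits without a single library were among them.

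The ratio of 2 genes within a library does not depend on how libraries are scaled. The log2 ratio of PIM2 to PIM1 was -1.64, -1.55 and -1.59 in the STAT3 shRNA libraries, against 0.19, -0.01 and 0.38 in the control libraries, a difference of -1.78. PIM2 and PIM1 thus drew about the same number of reads in controls, while PIM2 drew fewer than PIM1 in each STAT3 shRNA library. The log2 ratio of PIM2 to PIM3 was -2.46 ± 0.0693 with STAT3 shRNA and -0.95 ± 0.209 in controls (SD), a difference of -1.51. That of PIM1 to PIM3 was -0.87 ± 0.0649 with STAT3 shRNA and -1.13 ± 0.118 in controls, a difference of 0.27. In all 3 ratios the groups did not overlap, and the exact permutation test (two-sided, n = 3 each) gave p = 0.1 for every ratio, also after adjustment over the 3 ratios, and this design allows no smaller value. No 50-base window of a PIM transcript was found in another gene.

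**Figure D2:**
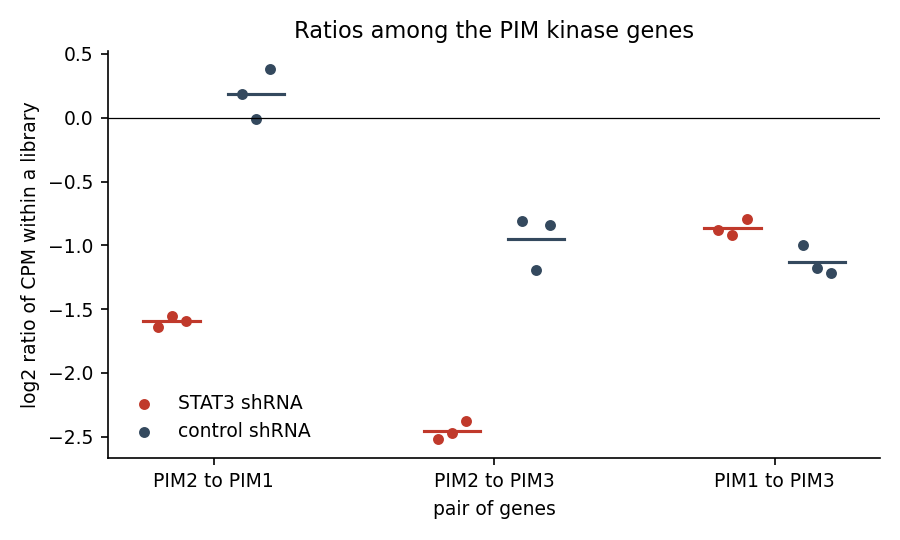
Log2 ratio of CPM within each library for the 3 pairs of PIM genes, in STAT3 shRNA libraries (red) and control shRNA libraries (dark blue), with bars for group means. PIM2 to PIM1 averages -1.59 with STAT3 shRNA and 0.19 in controls, and PIM1 to PIM3 -0.87 and -1.13.

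Genes for described PIM substrates and for the chaperones that hold PIM proteins were mostly not called. Of 15 tested, 0 were higher and 1 lower (9.39% and 8.13% over all genes), with a median of 0.06. At an unadjusted p under 0.05, a cut with no share over all genes given, edgeR gave 2 higher and 3 lower. DESeq2 at an FDR of 0.05 gave 0 higher and 1 lower (1373 and 1445 of 27207 genes). The 1 lower gene was MAP3K5, the stress kinase ASK1, with 4.36, 4.81 and 4.42 CPM in STAT3 shRNA libraries and 13.1, 10.9 and 10.4 CPM in controls (-1.34 ± 0.151, edgeR adjusted p = 0.000399). Leaving out control library 1 gave 1 higher and 3 lower (2068 and 2030 of 15455 genes).

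BCL3 (ENSG00000069399.15) is an unusual member of the I-kB family that sits in the nucleus and works with NF-kB p50 and p52. It had 15.2, 19.6 and 16.9 CPM in the STAT3 shRNA libraries, against 25.7, 28.2 and 33.3 CPM in the control libraries. All STAT3 shRNA libraries were under all controls, and the log2 fold change was -0.76 ± 0.139 (1.69-fold lower, edgeR adjusted p = 0.00553). Of 12 tested NF-kB subunits, inhibitors and other partners of BCL3, KAT5 and JUN among them, 2 rose and 0 fell, with a median of 0.26. Among all tested genes 9.39% were called higher and 8.13% lower. With library totals 5 of the list were called higher, and 1916 of all 14999 genes. At an unadjusted p under 0.05, a cut with no share over all genes given, edgeR gave 5 higher and 2 lower. DESeq2 at an FDR of 0.05 called 3 higher and 0 lower (1373 and 1445 of 27207 genes). NFKBIZ, another nuclear I-kB protein, had 10.2, 11.3 and 10.8 CPM with STAT3 shRNA, against 6.59, 6.62 and 6.8 CPM in controls, and rose (0.69 ± 0.127, edgeR adjusted p = 0.0055). The deubiquitinase CYLD was called higher (0.44 ± 0.111), a call that did not hold in 4 of the 13 alternatives. NFKB1 and NFKB2, which encode p50 and p52 (0.19 ± 0.101 and 0.32 ± 0.118), were not called. Leaving out any one STAT3 shRNA library or control library 2 left 1 higher. Leaving out control library 3 gave 4, and leaving out control library 1 added 1 lower. Higher calls over all genes numbered 796, 1100 and 800 without STAT3 shRNA library 1, 2 and 3. They numbered 819 without control library 2 and 1340 without control library 3. Without control library 1, 2030 genes were lower.

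CEBPD (ENSG00000221869.4), a C/EBP transcription factor induced in acute inflammation, had 31.5, 40.7 and 31.8 CPM in the STAT3 shRNA libraries, against 52.0, 70.6 and 81.8 CPM in the control libraries. The groups did not overlap, but the controls spread 1.57-fold from lowest to highest, the widest of the 9 genes. The log2 fold change was -0.97 ± 0.172 (1.97-fold lower, edgeR adjusted p = 0.00452), and it was -0.82 without control library 3 and -1.12 without control library 1. Of its 50-base windows 2, or 0.0939%, were shared with CEBPB. In the C/EBP family and its partners 1 of 9 tested genes rose and 1 fell (9.39% and 8.13% over all genes). The list median was -0.04. NFIL3, a bZIP repressor, had 8.3, 8.1 and 8.89 CPM with STAT3 shRNA, against 18.8, 14.5 and 13.9 CPM in controls, and fell (-0.90 ± 0.148, edgeR adjusted p = 0.003). TEF, a clock-linked bZIP factor, rose (0.70 ± 0.134, edgeR adjusted p = 0.00711). CEBPB averaged 112 ± 16.5 CPM with STAT3 shRNA and 142 ± 23.9 CPM in controls and was not called (-0.34 ± 0.145, edgeR adjusted p = 0.143). Without control library 1 the count of lower genes was 2 (2030 of all 15455 genes).

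BCL6 (ENSG00000113916.18), a zinc finger repressor best known from germinal centre B cells, had 15.4, 12.4 and 14.1 CPM in the STAT3 shRNA libraries, against 18.3, 17 and 18.2 CPM in the control libraries. The groups were apart but the difference of -0.35 ± 0.119 did not pass the FDR threshold (95% interval -0.62 to -0.08, edgeR adjusted p = 0.0774), in the fit used here or in any of the 13 alternatives, whose adjusted p ranged from 0.0741 to 0.201. Antisense RNAs AC072022.1 and AC072022.2 overlap it and had at most 3 counts in a library. AC072022.1 shared 123, or 2.98%, of the 50-base windows of BCL6. In the list of its partners and repressed genes 1 of 10 tested rose and 1 fell (9.39% and 8.13% over all genes). The list median was -0.05. PRDM1, or BLIMP1, a gene that BCL6 represses in B cells, had 38.2, 34.4 and 37.7 CPM with STAT3 shRNA, against 18, 15.8 and 15.4 CPM in controls, and rose (1.16 ± 0.108, edgeR adjusted p = 0.000141). ZBTB17, or MIZ1, a BCL6 partner, was called lower (-0.50 ± 0.114). Without STAT3 shRNA library 1 or 3 or control library 2 that call did not hold, and 0 were lower.

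MYC (ENSG00000136997.18), the growth-promoting transcription factor, was the steadiest of the 9. It had 345.9, 340.7 and 343.6 CPM in the STAT3 shRNA libraries, against 351.1, 340.1 and 355.8 CPM in the control libraries. The highest library exceeded the lowest 1.02-fold with STAT3 shRNA and 1.05-fold in controls, and the groups overlapped. The log2 difference was -0.02 ± 0.0744 (edgeR adjusted p = 0.864). Its 95% interval of -0.19 to 0.14 does not reach the size of change seen for the called genes. The sign turned under upper-quartile scaling and library totals.

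No gene in the network of MYC partners was called by edgeR, with 0 of 14 tested genes higher and 0 lower. Of all tested genes 9.39% were called higher and 8.13% lower. At an unadjusted p under 0.05, a cut with no share over all genes given, edgeR gave 0 higher and 2 lower in the network. DESeq2 at an FDR of 0.05 gave 0 higher and 1 lower (1373 and 1445 of 27207 genes). The median was -0.04. MAX, the obligate partner of MYC, averaged 36.9 ± 2.17 CPM with STAT3 shRNA and 42.1 ± 1.27 CPM in controls (-0.19 ± 0.0932), and by the naming rule MGA and AURKA, the members with the highest means, differed by 0.22 ± 0.14 and -0.09 ± 0.0785. Leaving out control library 1 gave 1 higher and 1 lower (2068 and 2030 of 15455 genes). Genes described as MYC targets went both ways, with 3 of 20 higher and 5 lower (9.39% and 8.13% over all genes). Their median was -0.20. At an unadjusted p under 0.05 edgeR gave 3 higher and 9 lower. No share over all genes is given for that cut, so these counts describe the list only. At an FDR of 0.05 DESeq2 called 3 higher and 8 lower (1373 and 1445 of 27207 genes). With library totals edgeR gave 3 lower (874 of 14999 genes). Nucleolin (NCL) had 847.5, 805.7 and 803.4 CPM with STAT3 shRNA, against 1258.6, 1301.4 and 1240.9 CPM in controls, and fell (-0.63 ± 0.0761, edgeR adjusted p = 0.000563). LDHA, lactate dehydrogenase, and the ribosome assembly gene MRTO4 also fell (-0.47 ± 0.0752 and -0.52 ± 0.082). ODC1, the first enzyme of polyamine synthesis, rose (0.51 ± 0.0831, edgeR adjusted p = 0.00281). The number of lower targets was 3 without STAT3 shRNA library 1 or 3 or control library 2, and 9 without control library 1. Lower calls over all genes numbered 666, 675, 708 and 2030 in these fits, in the same order, against 1219 in the main fit.

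**Figure D3:**
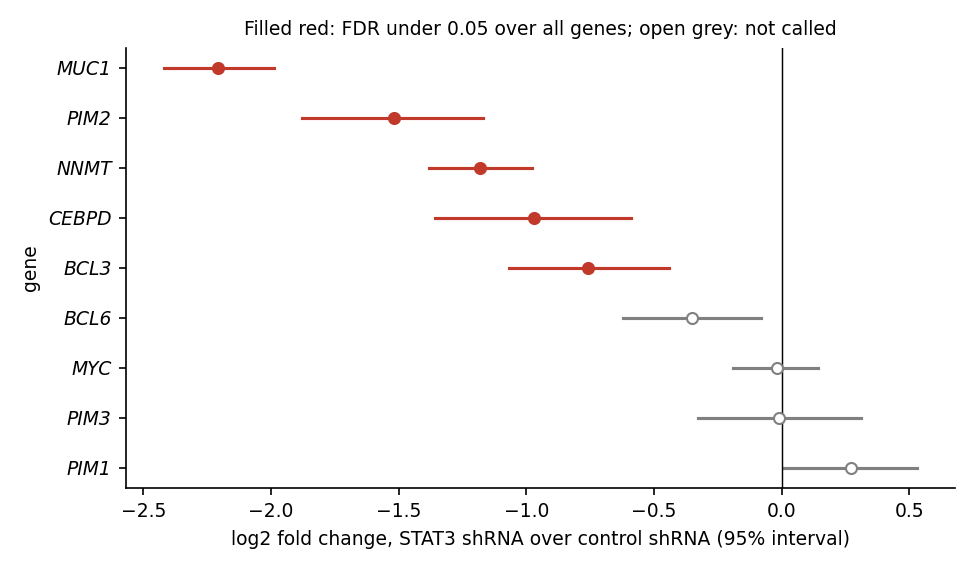
Log2 fold change of each of the 9 genes, STAT3 shRNA over control shRNA, with the 95% interval from the edgeR fit, filled red where the FDR over all genes was under 0.05. MUC1 lies at -2.21 and BCL3 at -0.76 among the called genes, and the intervals of MYC (-0.19 to 0.14) and PIM3 (-0.33 to 0.31) span 0.

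Compared per length, the order of the 9 genes differed between the groups. Levels are given here as CPM per 1000 bases (kb) of the longest annotated transcript. MYC was first in both, at 145 ± 1.12 CPM per kb with STAT3 shRNA and 148 ± 3.42 in controls (SD, n = 3 each). NNMT was the second in both, at 42.9 ± 2.15 CPM per kb with STAT3 shRNA and 97.1 ± 5.2 in controls. MUC1 was the sixth with STAT3 shRNA at 9.08 ± 0.605 CPM per kb, where its range overlapped those of BCL3 (8.45 ± 1.09) and PIM2 (8.29 ± 1.04). It was the third in controls at 41.9 ± 2.63 CPM per kb, within the range of PIM3 at 40.1 ± 7.07. PIM1 was the fourth with STAT3 shRNA at 19.5 ± 1.88 CPM per kb and the seventh in controls at 16.2 ± 1.64. With STAT3 shRNA, NNMT and PIM3 (39.8 ± 4.49) overlapped in range, as did PIM1 and CEBPD (15.9 ± 2.39). In controls, CEBPD (31.3 ± 6.9) overlapped in range with PIM3 above it and PIM2 (23.8 ± 4.66) below it, and PIM1 with BCL3 (14.3 ± 1.91). BCL6 was the last in both, at 3.35 ± 0.362 CPM per kb with STAT3 shRNA and 4.27 ± 0.165 in controls.

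The 9 genes also differed in how they varied between libraries of one group, a pattern looked at after the values were seen. PIM1, PIM2, PIM3, BCL3 and CEBPD were each highest, within the STAT3 shRNA group, in library 2, and each was lowest in control library 1 and highest in control library 3. That combined order was found for 5 of the 9 genes and for 21.3% of all tested genes. CEBPD deviated by 0.24 on the log2 scale from its group mean in STAT3 shRNA library 2, by -0.36 in control library 1 and by 0.29 in control library 3, and PIM3 by 0.18, -0.30 and 0.21. MYC deviated by at most 0.04 in size in any library, and BCL6 had the opposite order in the STAT3 shRNA group, with 0.15 in library 1 and -0.16 in library 2. The same libraries stood apart on the second principal component of all genes, at -31.1 for STAT3 shRNA library 2, 44.3 for control library 1 and -27.5 for control library 3. The part of this library difference in the calls was not tested beyond leaving out each library, which kept the 5 lower genes at 5 each time.

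**Figure D4:**
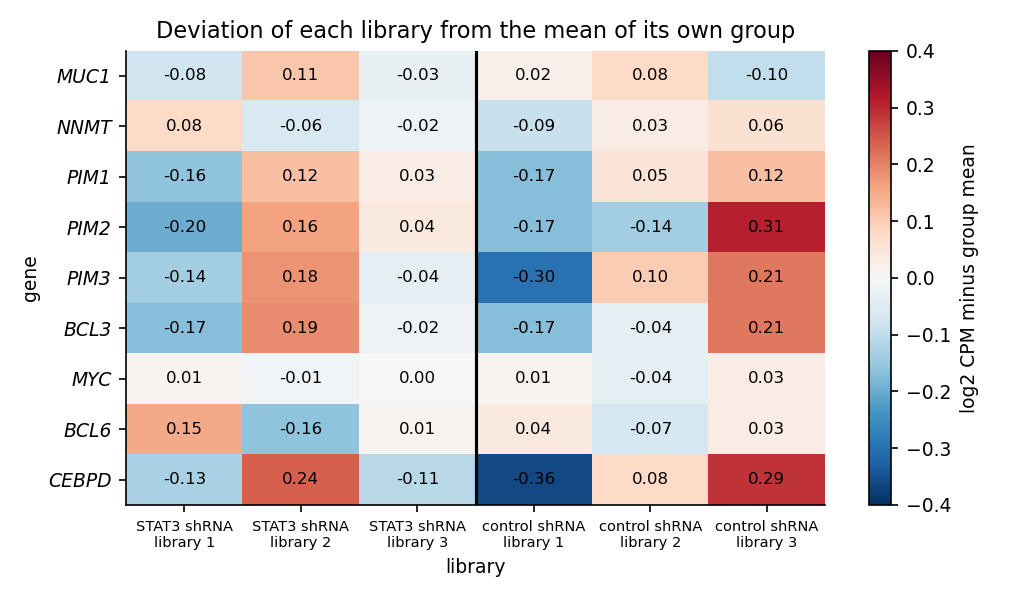
Deviation of log2 CPM in each library from the mean of its own group for the 9 genes, with STAT3 shRNA libraries on the left and control libraries on the right of the black line. The PIM genes, BCL3 and CEBPD are above their mean in STAT3 shRNA library 2 (0.12 to 0.24) and in control library 3 (0.12 to 0.31), while MYC stays within 0.04.

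The genes whose pattern over the 6 libraries was most like that of MUC1, among 10364 coding genes averaging 5 CPM or more, were PARP1, CFLAR, FZD5, SLCO3A1 and COL4A5, with Pearson r of log2 CPM of 0.9995, 0.9990, 0.9985, 0.9984 and 0.9980. PARP1 had 302, 312 and 301 CPM with STAT3 shRNA, against 492, 491 and 471 CPM in controls, a smaller change (log2 fold change -0.67). The r with STAT3 was 0.998 for MUC1, 0.992 for NNMT, 0.969 for PIM2, 0.924 for BCL3, 0.898 for CEBPD and 0.877 for BCL6. It was 0.493 for MYC, -0.019 for PIM3 and -0.755 for PIM1. Nearest to NNMT were NDUFA10 (r = 0.9981) and ADARB1 (0.9977), to PIM1 NDUFA4 (0.9910) and RBBP7 (0.9873), to PIM2 SAMD11 (0.9990) and NUP85 (0.9987), and to PIM3 TXNRD2 (0.9996) and MANF (0.9993). For BCL3 they were MTX2 (0.9992) and COPS9 (0.9962), for CEBPD NPLOC4 (0.9984) and FAM129B (0.9982), for BCL6 XPC (0.9971) and GIPC3 (0.9914), and for MYC SNX25 (0.9824) and RHBDF2 (0.9649). Over 6 libraries in 2 groups such values are high for any gene that differs between the groups, and they are given as a description.

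Other genes described as STAT3 targets showed calls in both directions. Of 28 tested, 3 rose and 5 fell, with a median of -0.13. Over all tested genes 9.39% were called higher and 8.13% lower, with a median of -0.01. TNFRSF1A, the main TNF receptor, had 64.7, 64.6 and 62.2 CPM with STAT3 shRNA, against 106.4, 108.0 and 122.8 CPM in controls, and fell (-0.82 ± 0.0896, edgeR adjusted p = 0.000342). SOCS3, which shuts off cytokine receptors and limits STAT3 itself, had 7.82, 6.43 and 5.83 CPM with STAT3 shRNA, against 14.2, 16.9 and 19.5 CPM in controls, and fell. PROS1, an anticoagulant cofactor, and FOS, a subunit of AP-1, rose: PROS1 had 46.7, 50.2 and 52.0 CPM with STAT3 shRNA against 23.0, 18.3 and 21.9 CPM in controls, and FOS changed by 0.86 ± 0.0917 on the log2 scale. Survival and cycle genes of the list, BCL2L1 (0.26 ± 0.114), MCL1 (-0.22 ± 0.0782), BIRC5 (-0.10 ± 0.111) and CCND1 (0.16 ± 0.0898), chosen after their values were seen, were not called. The number of lower genes was 3 without STAT3 shRNA library 3 and 8 without control library 1. Over all genes these fits called 675 and 2030 lower, against 1219 in the main fit.

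**Figure D5:**
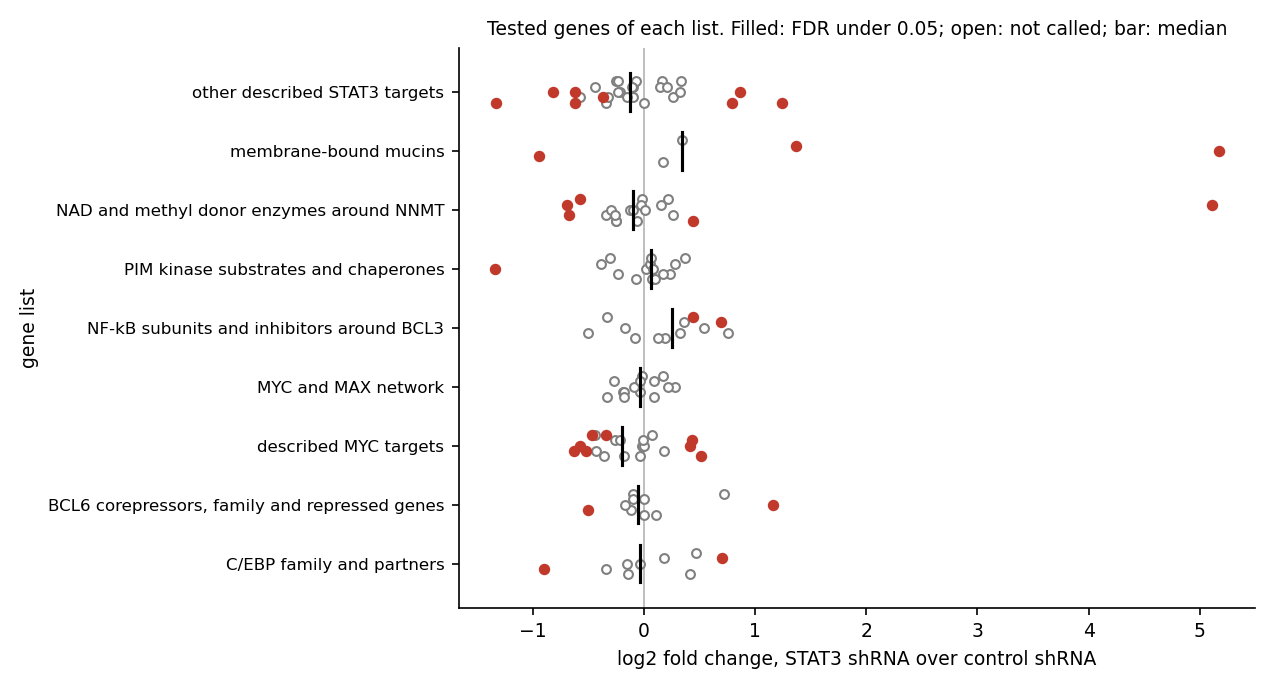
Log2 fold change, STAT3 shRNA over control shRNA, of every tested gene in the 9 lists of other STAT3 targets, relatives, partners and targets, filled where the FDR over all genes was under 0.05, with a bar at the list median. Medians run from -0.20 for described MYC targets to 0.34 for membrane-bound mucins, and MUC13 and NMNAT2, at or near the floor in controls, lie far to the right.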

How the data were processed

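The deposited file holds whole-number counts per gene for 6 libraries. Its values sum to different totals per library, so no normalization by the authors is visible. Not given in the sources used here are the aligner, counter, strand setting, build and annotation. Symbols that had turned into dates (23) were replaced by identifier. All 9 genes have 1 row each.

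The tests used edgeR 4.0.16 under R 4.3.3: filterByExpr (minimum count 10, minimum total 15), TMM scaling and the robust quasi-likelihood F test, two-sided, group only, with Benjamini-Hochberg adjustment over 14999 genes. TMM assumes that most genes do not differ. The SE is the log2 fold change divided by the root of F. The procedure was tested on simulated counts. Alternatives were DESeq2 1.42.0, other scalings and filters, a replicate block and leaving out each library. The labels do not say whether library numbers pair the groups, and the main fit treated them as unpaired. Same-numbered libraries correlated at 0.279, 0.191 and -0.227 in their deviations. Deviations from a mean of 3 libraries depend on one another, so these values cannot decide whether the numbers pair. Libraries of a group differed by 4.2 to 43 chi-square units per degree of freedom, more than counting noise gives. This does not tell separate cultures from repeat preparations.

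Lengths, gene types and transcripts come from GENCODE 29, promoters from RefSeq. The 9 genes, the lists and the naming rule were chosen with earlier results of these data known. By that rule each list gives up to 4 called genes with the smallest FDR, or up to 2 with the highest mean, MUC1 its 5 nearest patterns and each other gene its 2 nearest (r on log2 of CPM + 0.1). List members named without a call, other than MGA and AURKA, were chosen after their values were seen. A gene that the rule picks is not reported here.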

Additional observations from a re-analysis of the deposited data

How the results depend on the processing

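Among the 9 genes, the counts of 5 lower and 0 higher were the same in all 13 alternative fits. Over these the adjusted p was at most 0.000106 for MUC1, 0.000922 for NNMT, 0.00309 for PIM2, 0.032 for CEBPD and 0.0351 for BCL3, and at least 0.0505 for PIM1, 0.4 for PIM3 and 0.542 for MYC. PIM3 and MYC, neither of them called, turned in sign. PIM3 was 0.04 with upper-quartile scaling, 0.09 with library totals, 0.00 with the replicate block, and -0.13 to 0.10 without single libraries. For MYC upper-quartile scaling gave 0.03 and library totals 0.07. The median of all genes was 0.09 with library totals and -0.01 with TMM, and the share of calls that were higher was 68.7% with library totals, 62.3% with upper-quartile scaling and 48.7% by DESeq2, against 53.6% with TMM.

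The replicate block gave 2278 called genes and 5 lower of the 9. It changed 1 list count by over 1.5 times, enzymes around NNMT, to 1 higher. Without control library 1 4098 genes were called, without STAT3 shRNA library 1 1462, STAT3 shRNA library 3 1475 and control library 2 1527. Of these, 2030, 666, 675 and 708 were lower, against 1219 in the main fit. The list counts that follow are to be read beside these totals. Without single libraries the lower counts ran from 3 to 8 for other STAT3 targets, 0 to 1 for mucins, 1 to 6 for enzymes around NNMT, 1 to 3 for PIM substrates, 0 to 1 for NF-kB genes, 0 to 1 for the MYC network, 3 to 9 for MYC targets, 0 to 1 for BCL6 partners and 1 to 2 for the C/EBP family. The higher counts ran from 1 to 2 for enzymes around NNMT, 0 to 1 for PIM substrates, 1 to 4 for NF-kB genes and 0 to 1 for the MYC network. Upper-quartile scaling and library totals gave 0 lower mucins and 1 higher PIM substrate. Library totals also gave 5 higher NF-kB genes and 3 lower MYC targets. Over all 14999 genes upper-quartile scaling called 1661 higher and 1006 lower, and library totals 1916 higher and 874 lower. With no filter 1 NF-kB gene was lower (1351 of 27207 genes). DESeq2 gave 1 lower gene in the MYC network and 8 lower MYC targets (1445 of 27207 genes). The cause of these moves was not tested.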
